A study of Sus scrofa with 9 samples.

Results

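CD53, MPEG1, LCP1 and AIF1 are 4 genes commonly read as markers of leukocytes, the white blood cells that reside in or pass through tissue. They were followed across pig esophageal submucosal glands (ESMG), the squamous tissue above the glands, and spheroids grown in culture from ESMG. A probe set was taken as a member where its only annotated symbol was one of these names; each gene had 1 such probe set, so the members were 4 of 12217 named genes. The genes were chosen by their mean levels in spheroids against the tissues: LCP1 and AIF1 stayed at or above their tissue levels, while CD53 and MPEG1 did not. Values of these genes in spheroids are therefore given as a description, with no test. The comparison of ESMG with squamous tissue was not itself used in choosing them and was tested. It shares the tissue arrays with the comparisons behind the choice, so its p-values are not fully free of that choice.

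The proteins do different work. CD53 is a tetraspanin, a small membrane protein that organises receptors on the surface of leukocytes. MPEG1, also called perforin-2, is a pore-forming protein of macrophages that attacks engulfed bacteria and belongs to the MACPF family with perforin and the late complement components. LCP1, or L-plastin, bundles actin filaments in leukocytes and is also made by many tumour cells of epithelial origin; the related plastins PLS1 and PLS3 serve other tissues. AIF1, also called IBA1, is a calcium-binding protein that acts on actin in macrophages and microglia. In a gland or a squamous lining, genes of this kind are read mainly as signs of resident macrophages, lymphocytes and other immune cells.

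Each group held 3 arrays with 1 sample each. ESMG and squamous samples came from control pigs 37, 39 and 40, so each animal gave both tissues. Spheroids came from pigs labelled 1, 2 and 3, whose relation to the other animals the sources used here do not give; they give no strain or age either. Spheroids grew in growth factor reduced Matrigel under Advanced DMEM/F12 with B27, N2, 10 mM HEPES and 50 ng/ml of recombinant human EGF. Their RNA was isolated with a different kit from that used for tissue. Culture, kit and the set of animals, as labelled, cannot be told apart. Values are RMA levels on a log2 scale, on which 1 unit is a 2-fold difference. Array medians ran from 6.84 to 7.04 and lower quartiles from 5.36 to 5.65; levels near the lower quartile are compressed by background, and no detection call was used. The gland keratin KRT18 lay at 8.73 to 9.86 in ESMG, 5.84 to 6.38 in squamous tissue and 9.41 to 9.74 in spheroids. The number of arrays, 3 per group, limits the precision.

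CD53 was high in both tissues and low in spheroids. Its log2 level was 10.26, 8.75 and 9.48 in the ESMG of pigs 37, 39 and 40, and 9.02, 7.93 and 8.39 in their squamous tissue. In the spheroids of pigs 1, 2 and 3 it was 6.09, 5.97 and 6.54. Every spheroid array lay below every tissue array, whereas the ranges of the tissues overlapped. The mean was 9.49 ± 0.75 in ESMG, 8.45 ± 0.55 in squamous tissue and 6.20 ± 0.30 in spheroids (SD, n = 3 each). The level in spheroids was thus 9.81-fold lower than in ESMG (log2 difference -3.29, SE 0.35) and 4.74-fold lower than in squamous tissue (-2.24, SE 0.35).

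MPEG1 had the same order of groups with a narrower gap between the tissues. It measured 9.57, 8.34 and 8.46 in the ESMG of pigs 37, 39 and 40, and 9.13, 8.49 and 7.75 in squamous tissue. Spheroids measured 5.87, 5.71 and 5.62, just above the lower quartiles of their arrays (5.36 to 5.44), so the fold against tissue rests on a level near the floor. Again no spheroid array reached a tissue array, and the tissues overlapped in part, the highest array being of ESMG and the lowest of squamous tissue. Means were 8.79 ± 0.68, 8.46 ± 0.69 and 5.73 ± 0.13 in ESMG, squamous tissue and spheroids (SD, n = 3 each). Spheroids stood 8.32-fold under ESMG (log2 difference -3.06, SE 0.35) and 6.61-fold under squamous tissue (-2.73, SE 0.35). Among all genes, 21.0% had every spheroid array below every ESMG array and 21.9% had every spheroid array below every squamous array; since the genes were picked for this, nothing is read from their share.

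LCP1 kept its gland level in spheroids. The ESMG arrays of pigs 37, 39 and 40 gave 10.10, 9.17 and 9.25, and the squamous arrays 8.71, 7.79 and 8.30. The spheroid arrays gave 9.21, 9.50 and 9.85, all inside the ESMG range and all above the squamous arrays. Means were 9.51 ± 0.51 in ESMG, 8.27 ± 0.46 in squamous tissue and 9.52 ± 0.32 in spheroids (SD, n = 3 each). The log2 difference between spheroids and ESMG was 0.01 (SE 0.28); it changed sign with the normalization, from -0.20 after cyclic loess and -0.12 after quantile normalization to 0.02 with array medians set equal, and it was -0.35 with array weights, so no direction is given. Against squamous tissue spheroids were 2.39-fold higher (1.26, SE 0.28), and the difference was 0.72 with array weights.

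AIF1 was the only member with a spheroid mean above both tissue means by more than its standard error. It measured 7.83, 7.02 and 6.93 in the ESMG of pigs 37, 39 and 40, and 7.24, 6.59 and 6.62 in squamous tissue. Spheroids measured 8.21, 8.40 and 7.63. The spheroids of pigs 1 and 2 lay above every tissue array, while those of pig 3 lay under the ESMG array of pig 37. Means were 7.26 ± 0.49, 6.81 ± 0.37 and 8.08 ± 0.40 in ESMG, squamous tissue and spheroids (SD, n = 3 each). Spheroids stood 1.77-fold above ESMG (log2 difference 0.82, SE 0.28) and 2.41-fold above squamous tissue (1.27, SE 0.28). Spheroid and squamous arrays overlapped for neither AIF1 nor LCP1, as for 28.6% of all genes with spheroids on the higher side; against ESMG, where both overlapped, that share was 30.3%. Levels of different genes come from different probes and are not set against each other here.

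**Figure D1:**
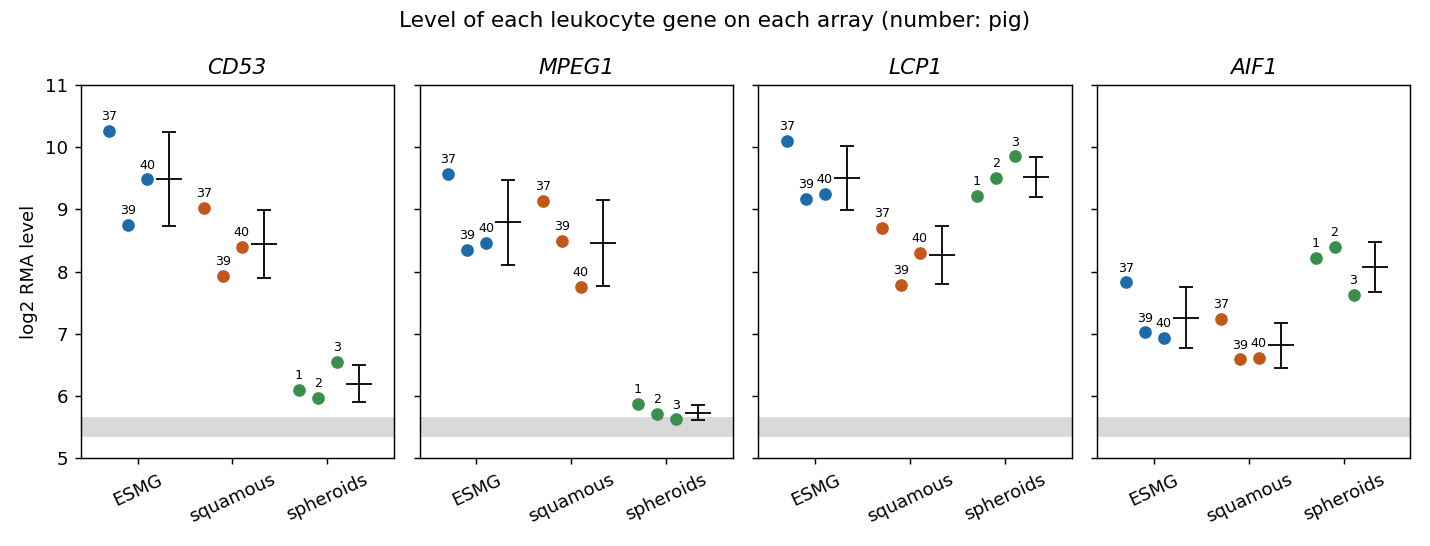
Log2 RMA level (vertical axis) of CD53, MPEG1, LCP1 and AIF1 on each of the 9 arrays, with the pig number over each point; the bar beside each group is the mean ± SD of 3 arrays and the grey band spans the lower quartiles of the arrays (5.36 to 5.65). CD53 and MPEG1 lie between 5.62 and 6.54 in spheroids, LCP1 stays between 9.21 and 9.85, and AIF1 lies between 7.63 and 8.40.

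The comparison of ESMG with squamous tissue asked how the glands differ from the lining above them. LCP1 was the 1 member called higher in ESMG, where a call needs both a fold of 2 or more and an adjusted p below 0.05; over all genes 2.65% were called in that direction. It was 2.36-fold higher (log2 difference 1.24, SE 0.28, limma adjusted p = 0.0246), in 3 of 3 pigs, and its arrays did not overlap, as in 9.88% of all genes. CD53 was 2.07-fold higher, also in 3 of 3 pigs, and was not called (1.05, SE 0.35, adjusted p = 0.120). AIF1 had a difference of 0.45 (SE 0.28, adjusted p = 0.442) and MPEG1 one of 0.33 (SE 0.35, adjusted p = 0.692). For MPEG1 the sign changed when 1 of 2 arrays was left out, ESMG 37 (-0.060) or squamous 40 (-0.02).

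Pairing the tissues by animal changed calls in a way that depended on how it was fitted and on which arrays. Within pigs 37, 39 and 40 the ESMG level of CD53 exceeded the squamous level by 1.24, 0.82 and 1.09, a spread (SD 0.21) well under that between animals within a tissue. With pig as a fixed replicate block, on the 6 tissue arrays alone, CD53 was called (log2 difference 1.05, SE 0.18, adjusted p = 0.0107), and LCP1 kept its call (1.24, SE 0.18, adjusted p = 0.00491). Without a block, limma on the same 6 arrays gave CD53 an SE of 0.38 (adjusted p = 0.183) and LCP1 one of 0.29 (adjusted p = 0.0467). With pig as a random block, on all 9 arrays, CD53 was not called (SE 0.41, adjusted p = 0.211) and LCP1 lost its call (SE 0.32, adjusted p = 0.0540). In that fit 2.46% of all genes were called higher in ESMG. The random block gives every gene the same correlation between arrays of 1 pig, here -0.15. A negative correlation widens the SE of a difference within pigs, also for genes whose own pairs run alike. The paired differences of LCP1 were 1.39, 1.39 and 0.95, those of AIF1 0.59, 0.44 and 0.31, and those of MPEG1 0.44, -0.15 and 0.70. With the fixed block, AIF1 (adjusted p = 0.221) and MPEG1 (adjusted p = 0.525) were not called, and 2.73% of all genes were called higher in ESMG. All members but MPEG1 were higher in ESMG in every pig, as were 14.7% of all genes.

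The call on LCP1 did not hold without some single arrays. The difference shrank and the call was lost without ESMG 37 (log2 difference 0.94, adjusted p = 0.0876) and without squamous 39 (1.00, adjusted p = 0.0933). Without squamous 40 the call was lost although the difference did not shrink (1.26, SE 0.34 against 0.28, adjusted p = 0.0760). The call was kept without both arrays of pig 37 (1.17, adjusted p = 0.0398). CD53 was called without ESMG 39 (1.42, adjusted p = 0.0382).

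Pig 37 was the highest animal for each of the 4 genes, in ESMG and in squamous tissue alike. The same held for PTPRC, the pan-leukocyte phosphatase CD45, at 9.65 in the ESMG of pig 37 against 7.76 and 8.14 in pigs 39 and 40, and at 8.29 against 7.47 and 7.60 in squamous tissue. Of 86 other genes on 6 leukocyte lists, 41 had pig 37 highest in both tissues, none pig 39 and 2 pig 40. Over all genes the shares were 9.65%, 7.84% and 10.8%. On the list of shared leukocyte genes it was 13 of 14, on the macrophage and dendritic cell list 13 of 32, on the T and NK cell list 9 of 22, on the B and plasma cell list 4 of 11 and on the mast cell list 2 of 3. The neutrophil list had 0 of 4 highest in pig 37 and 1 of 4 highest in pig 40. The mean level of the 14 shared leukocyte genes was 8.18, 7.05 and 7.29 in the ESMG of pigs 37, 39 and 40, and 7.19, 6.77 and 6.71 in squamous tissue. Mean levels of the 11 epithelial markers, at 10.50, 10.53 and 10.32 in ESMG, and of the 9 fibroblast markers, at 11.36, 11.48 and 11.70, were not highest in pig 37 there, whereas in squamous tissue 3 lists of other cells were. These were the fibroblast markers (11.65 against 11.30 and 11.34 in pigs 39 and 40), the endothelial markers (8.31 against 8.13 and 8.05) and the smooth muscle markers (11.12 against 10.86 and 11.06); their part in the pattern was not tested. Some genes high in ESMG also stood out on the squamous array of pig 37. LYZ read 10.87 there against 6.26 and 6.28 in pigs 39 and 40. JCHAIN read 10.00 against 7.09 and 7.17, and TSPAN1 9.05 against 6.97 and 6.89. The keratins KRT18 (6.38 against 5.97 and 5.84) and KRT19 (8.803 against 8.149 and 8.308) were also highest there but differed less. KRT8 was not highest there (8.54 against 8.65 and 7.84), nor was the epithelial marker EPCAM (8.73 against 8.48 and 8.93). Whether that sample held gland material was not tested. In bulk RNA, more leukocytes and more RNA per leukocyte cannot be told apart.

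**Figure D2:**
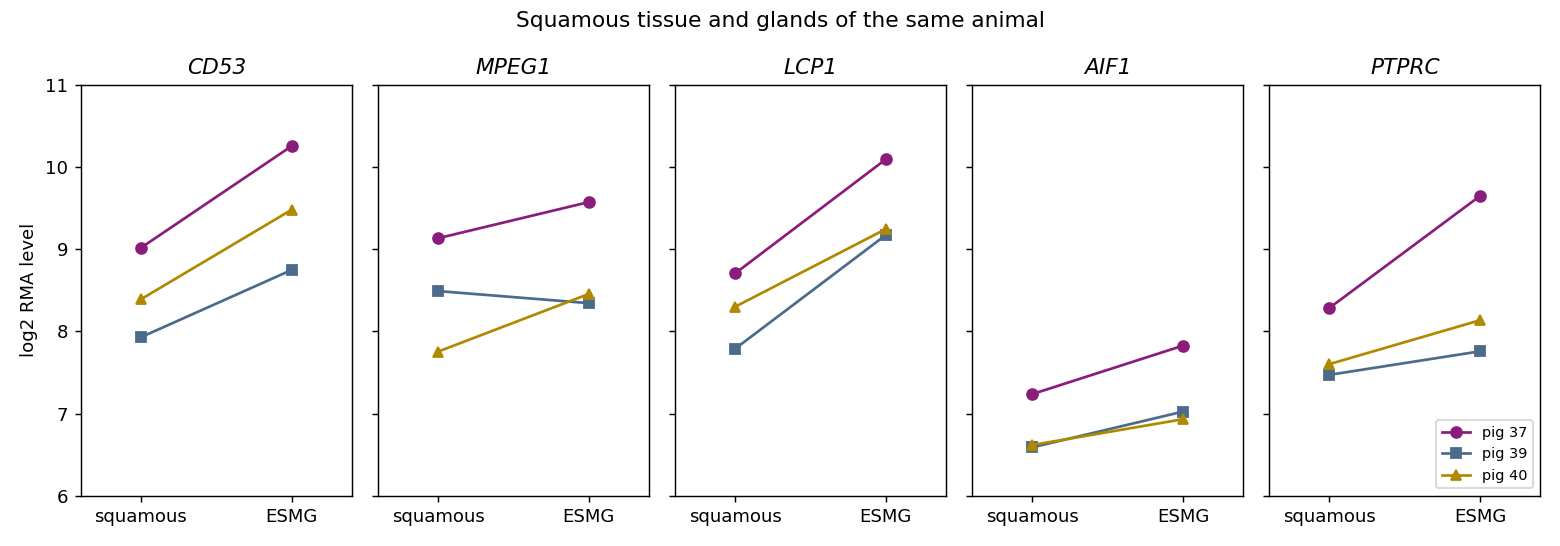
Log2 RMA level of the 4 genes and of PTPRC in the squamous tissue and the ESMG of pigs 37, 39 and 40, a line joining the samples of 1 animal. Pig 37 lies above the other animals in every panel; the lines of CD53 run nearly parallel (differences of 1.24, 0.82 and 1.09), and that of pig 39 falls for MPEG1 (-0.15).

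The rest of the leukocyte lists set a frame for these values. In counts of list genes here and below, fell and rose mean called lower and called higher. Of the 86 other genes, 42 fell in spheroids against ESMG and 1 rose, against 8.91% and 7.99% of all genes in those directions. Called or not, 75 of the 86 were lower, as were 5191 of all 12217 genes. The median log2 difference of the 86 was -1.01 and that of all genes 0.09. Without both arrays of pig 37, 32 fell, with a median of -0.74. Against squamous tissue 25 fell and 1 rose (8.05% and 8.61% of all genes), with a median of -0.50 against 0.03. The comparisons share the spheroid arrays, and 24 genes fell in both. In ESMG against squamous tissue 4 of the 86 rose, or 4.65% against 2.65% of all genes, with a median of 0.41 against -0.06. They were VAV1 (1.30), CD209 (1.72), JCHAIN (4.47) and DERL3, a protein of the secretory pathway abundant in plasma cells (1.49). By animal, the median was 0.61 in pig 37 and 0.47 in pig 40, with 74 and 79 of the 86 genes higher in ESMG. It was -0.05 in pig 39, with 39 higher. Of the 86 genes 37 were higher in every pig, against 14.7% of all genes. Shares by single animal were not taken over all genes, so nothing is read from the contrast between pigs. Array medians in ESMG and squamous tissue were 6.96 and 6.98 in pig 37, 6.96 and 7.04 in pig 39, and 7.01 and 6.96 in pig 40. The count of calls was 7 with pig as a fixed replicate block on the 6 tissue arrays, 11 without the squamous array of pig 37 and 8 without both arrays of that pig.

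Of the shared leukocyte genes 11 of 14 were called lower against ESMG (median -1.71), and all 14 had a negative difference. PTPRC dropped from 8.51 in ESMG to 5.57 in spheroids (log2 difference -2.95, SE 0.39, adjusted p = 0.000112), where its arrays read 5.76, 5.45 and 5.49. EVI2B, a membrane protein of blood cells, fell by 3.30 (SE 0.35, adjusted p = 2.18e-05). VAV1, a signalling protein of leukocytes, fell by 1.20 (SE 0.17, adjusted p = 0.000187). It had been higher in ESMG than in squamous tissue (1.30, adjusted p = 0.000947), and spheroids and squamous tissue were at 7.13 and 7.03. Within this list CD53 lay near the bottom of the differences between spheroids and ESMG, with 1 of 14 genes lower. LCP1 lay above all 14, whose differences ran from -3.30 to -0.30. The members were chosen on such differences, so nothing is read from their ranks.

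Macrophage and dendritic cell genes fell in 18 of 32 against ESMG (median -1.24). The mannose receptor MRC1 fell by 4.04 (SE 0.33, adjusted p = 2.92e-06), the lectin CD209 fell by 3.92 (SE 0.27) and the complement subunit C1QB, secreted by macrophages, fell by 3.52 (SE 0.27). MRC1 read 5.26, 5.08 and 4.41 in spheroids, under the lower quartile of each array, so its fold is imprecise. Of the 86 leukocyte genes 19 lay there on every spheroid array, among them MS4A2 and FCER1A, against 1868 of all 12217 genes. CSF1R, the receptor on which macrophages depend, fell by 1.71 (SE 0.17, adjusted p = 1.49e-05). SPI1, the transcription factor PU.1, fell by 1.22 (adjusted p = 0.0023); without the ESMG array of pig 37 its difference of -0.94 was under the fold minimum. CD14, a monocyte receptor for bacterial lipopolysaccharide, was not called (-0.50, SE 0.23, adjusted p = 0.105), with 6.86 to 7.08 in spheroids and 6.98 to 7.75 in ESMG. MPEG1 had 4 of the 32 genes below it and AIF1 had all 32 below it, the highest of them at 0.17. These ranks too follow in part from the choice of members.

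Some lymphoid and mast cell genes fell as well. T and NK cell genes fell in 6 of 22, led by the cytokine receptor chain IL2RG (-1.49, SE 0.40) and CD3D, a chain of the T cell receptor complex (-1.31, SE 0.32). Without the ESMG array of pig 37 these differences were -0.88 and -0.86, under the fold minimum. CD3E was called at -1.18 (adjusted p = 0.0402) and lost the call without any single spheroid array, without ESMG 37 (-0.60) or squamous 39, and under other settings. B and plasma cell genes fell in 5 of 11, with JCHAIN, which links the units of multimeric antibodies, at -4.19 (SE 0.61) and PRDM1, a regulator of plasma cells that squamous epithelium also uses, at -1.91 (SE 0.18). Mast cell genes fell in 2 of 3, MS4A2 at -2.74 and FCER1A at -2.01, both subunits of the receptor for immunoglobulin E. The 1 gene that rose was on the neutrophil list, MMP9, a gelatinase that epithelial cells also secrete (2.50, SE 0.20, adjusted p = 2.94e-06).

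**Figure D3:**
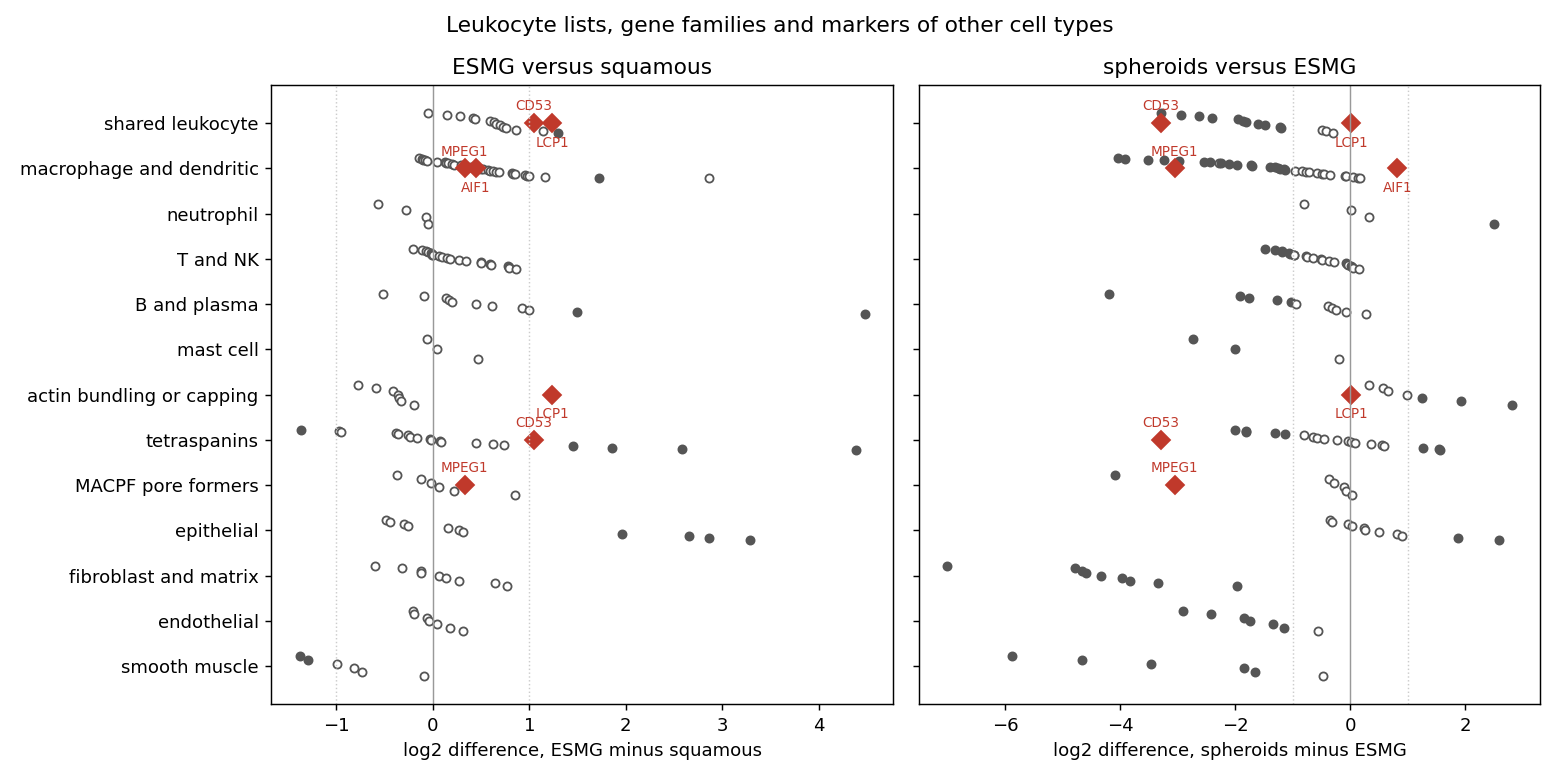
Log2 difference (horizontal axis) of every measured gene of 13 lists, ESMG minus squamous tissue at left and spheroids minus ESMG at right; filled circles were called, open circles were not, dotted lines mark a 2-fold difference and red diamonds are CD53, MPEG1, LCP1 and AIF1, which were not tested at right. At right CD53 (-3.29) and MPEG1 (-3.06) lie among the lowest genes of their leukocyte lists, and LCP1 (0.01) and AIF1 (0.82) above all others of theirs. The members were chosen on such differences, so nothing is read from these places.

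Genes related to LCP1 and AIF1 by family or function were measured on the same arrays. All 7 other actin bundling or capping genes measured higher in spheroids than in ESMG (median 0.98), and 3 of them were called. These were FSCN1, the bundler fascin, by 2.82 (SE 0.23, adjusted p = 2.66e-06), CAPG, a filament-capping protein, by 1.93 (SE 0.15, adjusted p = 2.15e-06), and the crosslinker ACTN1, named because so few were called, by 1.25. The plastin PLS3 was at 10.91 in ESMG, 11.50 in squamous tissue and 11.48 in spheroids, differing from ESMG by 0.57 in spheroids (adjusted p = 0.0108), under the fold minimum. In ESMG against squamous tissue the 7 genes ran from -0.77 to -0.19 (median -0.36). AIF1L, the paralog of AIF1, lay lower in spheroids, where AIF1 lay higher: it fell by 2.52 against ESMG (SE 0.15, adjusted p = 3.07e-07) and fell by 3.23 against squamous tissue (adjusted p = 4.29e-08), from 8.55 and 9.26 to 6.03.

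Tetraspanins other than CD53 were split, with 3 of 19 called higher and 5 called lower in spheroids than in ESMG, against 7.99% and 8.91% of all genes. The 3 higher ones are named to give both directions. Mean levels in ESMG and spheroids were 8.39 and 9.96 for TSPAN17, 8.90 and 10.45 for CD151, and 10.64 and 11.90 for UPK1B. TSPAN13 fell by 2.00 (SE 0.30) and TSPAN18 fell by 1.82 (SE 0.25). TSPAN1, found in secretory epithelium, fell by 1.81 against ESMG (SE 0.50, adjusted p = 0.0121; adjusted p = 0.0557 without the spheroid array of pig 2) and was 4.39 higher in ESMG than in squamous tissue (SE 0.50). Of 6 other MACPF genes, 1 fell, the complement component C7, at -4.10 (SE 0.19, adjusted p = 5.1e-08), with spheroid arrays also under their lower quartiles, and PRF1, the perforin of killer lymphocytes, lay between 5.48 and 6.23 on all 9 arrays.

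Named genes next to the members in RefSeq's gene order (assembly Sscrofa11.1) were also measured. AIF1 lies between LST1 and NCR3. LST1, itself a leukocyte gene, measured 5.81 ± 0.15, 5.87 ± 0.34 and 5.95 ± 0.35 in ESMG, squamous tissue and spheroids (SD, n = 3 each), and NCR3, a receptor of natural killer cells, 6.06 ± 0.08, 6.05 ± 0.20 and 5.84 ± 0.18. LCP1 lies between LRRC63 and CPB2, whose group means of 3.17 to 4.55 were under the lower quartiles of the arrays (5.36 to 5.65). Differences at such levels are compressed by background. MPEG1 is followed by DTX4, a ubiquitin ligase of the Notch pathway, which rose in spheroids against ESMG by 1.41 (SE 0.14, adjusted p = 1.21e-05), while MPEG1 lay lower there. CD53 is preceded by LRIF1, which differed by -0.71 (SE 0.32, adjusted p = 0.0967) and was called without ESMG 40 (-1.05) and with array weights (-1.03).

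Markers of other tissue cells moved in spheroids beside the leukocyte genes. All 9 fibroblast and matrix markers fell against ESMG (median -4.34), among them the matrix protein MGP at -7.02. Of 7 endothelial markers 6 were called lower (median -1.74), with PECAM1 at -2.42. So were 5 of 6 smooth muscle markers, the actin ACTA2 at -5.89. Every measured marker of both lists had a negative difference. The mean level of the fibroblast list went from 11.36 to 11.70 in ESMG to 6.89 to 7.69 in spheroids, and that of the 14 shared leukocyte genes from 7.05 to 8.18 to 5.79 to 5.84. Epithelial markers had mean levels of 10.32 to 10.53 in ESMG and 10.93 to 11.20 in spheroids, and EPCAM, an adhesion protein of simple epithelium, differed by -0.32 (adjusted p = 0.333). The part of cell makeup in the values of the 4 genes was not tested.

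The 4 profiles fell into 2 pairs by shape, as the choice of genes implies. After centring each gene on its own mean, the root mean square distance over the 9 arrays was 0.48 between CD53 and MPEG1 and 0.51 between LCP1 and AIF1, against 1.62 to 1.88 across the pairs. The gene closest to CD53 was PTPRC, at 0.31, followed by the endocytic adaptor DAB2, MS4A2, the matrix proteoglycan VCAN and the complement subunit C1QC (up to 0.36). Closest to MPEG1 was EVI2B, at 0.23, followed by DAB2, the class II antigen-presenting SLA-DQB1, C1QC and the chloride channel protein CLIC2 (up to 0.31). These neighbours follow in part from the low spheroid levels for which CD53 and MPEG1 were chosen.

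The genes closest to LCP1 and AIF1 follow in part from how these members were chosen. LCP1 was nearest to CHI3L1, a secreted chitinase-like protein, at 0.23, and then to FNDC3B, the thiol enzyme GLRX, the protease-activated receptor F2RL2 and the kinase STK17B (up to 0.26). CHI3L1 read 9.18, 7.86 and 7.85 in the ESMG of pigs 37, 39 and 40, from 6.30 to 7.54 in squamous tissue and from 8.22 to 8.90 in spheroids. AIF1 was nearest to the palmitoyltransferase ZDHHC14, the kinase MAST2, the exon junction protein MAGOH, MYADM and OGFRL1, at 0.24 to 0.26. MAGOH read 6.61 to 6.95 in ESMG, 6.42 to 6.93 in squamous tissue and 8.11, 8.21 and 7.40 in the spheroids of pigs 1, 2 and 3, with the lowest spheroid value in pig 3, as for AIF1. LCP1 and AIF1 vary less than the other members (0.69 and 0.63 around their own means, against 1.45 for both CD53 and MPEG1), so equal distances mean a looser likeness for them.

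**Figure D4:**
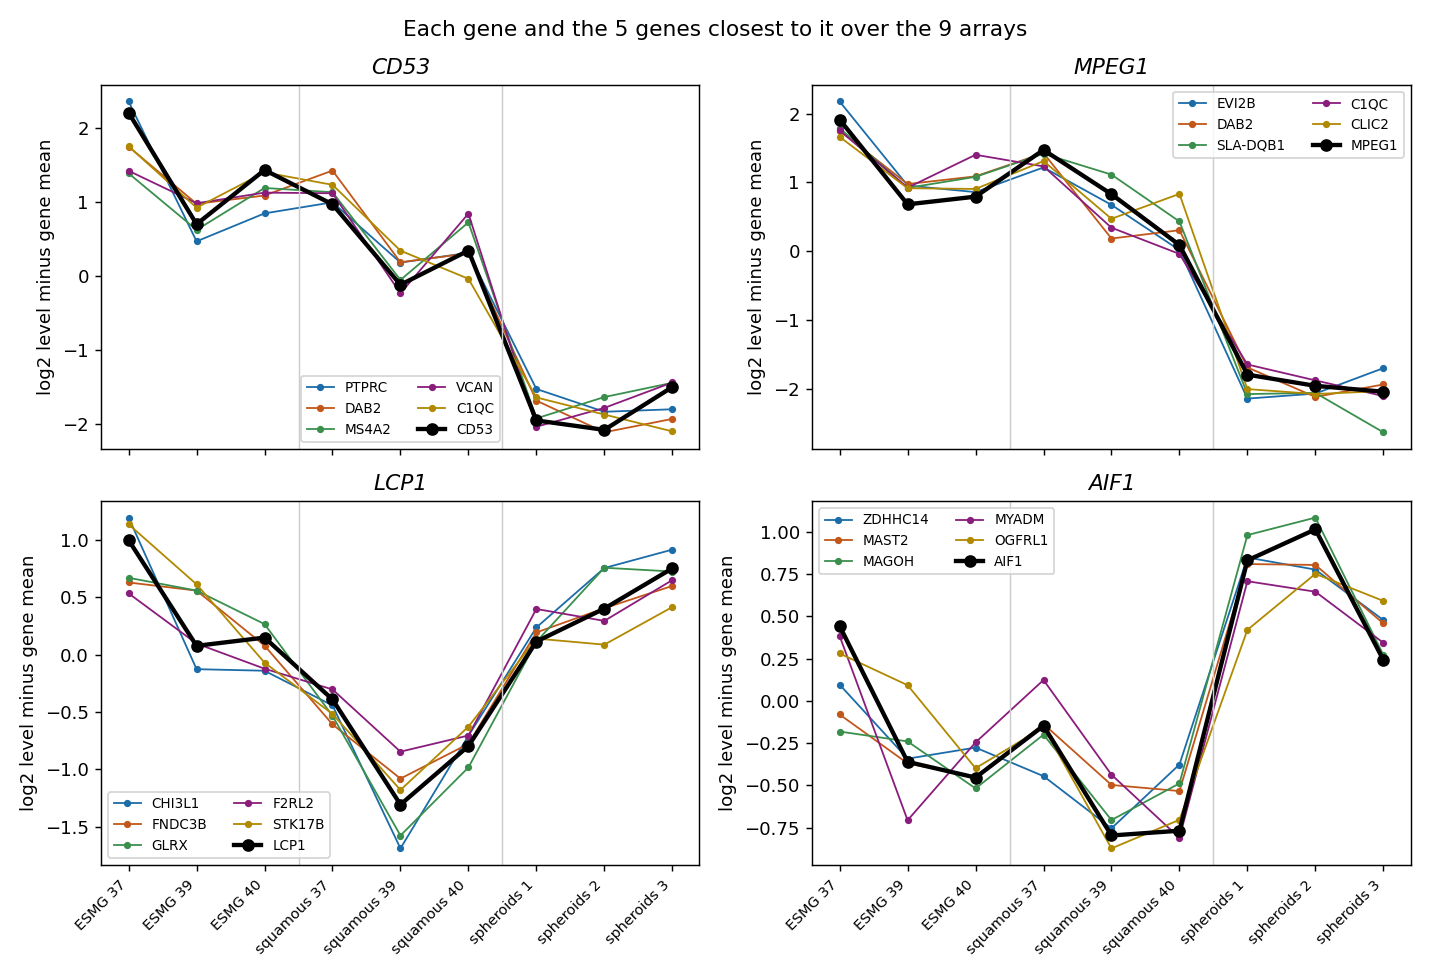
Log2 level minus the gene's own mean over 9 arrays (vertical axis), for each of the 4 genes (thick black line) and the 5 genes closest to it (thin lines); arrays are named by group and pig, and lines only guide the eye. CD53 and MPEG1 and their neighbours step down in spheroids, those of LCP1 dip in squamous tissue, and those of AIF1 step up in spheroids.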

How the data were processed

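The authors deposited log2 RMA levels of Affymetrix PorGene arrays from a gene-level analysis in Expression Console, per the labels. RMA makes the arrays' distributions alike. Transcriptome Analysis Console 3.0 is named without a role, per the submitters' processing notes; the sources used here do not give a genome build. Of 27558 probe sets, 13157 had 1 gene symbol in the platform annotation; symbols were updated through RefSeq gene numbers (12841 matched), and the probe set with the highest mean stood for each of 12217 genes. All 9 value columns matched a sample.

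A group-means model over the 9 arrays was fitted with limma 3.58.1 in R 4.3.3, without a block, for 3 comparisons; calls needed a two-sided p below 0.05 after Benjamini-Hochberg adjustment over all genes and a fold of at least 2. The fit was tested on simulated data. ESMG and squamous arrays of 1 number come from 1 animal, per the labels; their deviations from group means correlated at 0.42, -0.15 and -0.17 for pigs 37, 39 and 40. Tables and plots used Python 3.11.15, pandas 2.3.3 and matplotlib 3.10.9.

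The members, 14 gene lists and the naming rule were chosen with earlier results of these data known: the members, key markers, the 2 largest called changes per list and comparison, and the 5 closest genes to each member. Of 143 symbols on 6 leukocyte lists, 90 were measured. MMP9, SPI1 and others act in more than 1 cell type. Protein and promoter sequences were not used here.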

Additional observations from a re-analysis of the deposited data

How the results depend on the processing

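In all, 22 alternative settings were run, 9 of them leaving out a single array; leaving out both arrays of pig 37 was added after the data were seen. Over the settings the difference between spheroids and ESMG ran from -3.67 to -2.91 for CD53, -3.28 to -2.67 for MPEG1, -0.35 to 0.31 for LCP1 and 0.65 to 1.10 for AIF1. In ESMG versus squamous tissue without single arrays, CD53 ran from 0.67 to 1.42, MPEG1 from -0.060 to 0.67 (-0.02 without squamous 40) and LCP1 from 0.94 to 1.46. The random block, on all 9 arrays, ended the call on LCP1 (1.24, adjusted p = 0.0540) and made none on CD53 (adjusted p = 0.211). The fixed replicate block, on the 6 tissue arrays, brought a call on CD53 (1.05). It raised the count of leukocyte genes from 4 to 7 and changed no other call on a member. That count was 4 to 11 without single arrays and 8 without pig 37. Against squamous tissue the leukocyte genes called higher in spheroids numbered 1 to 3 without single arrays and 3 without pig 37. The median log2 difference of leukocyte list genes between spheroids and squamous tissue was -0.77 with the dimmest genes left out, against -0.50 in the main fit. That setting drops the dim list genes too, so the medians are over different sets of genes. LCP1 was 0.72 against squamous tissue with array weights. With all probe sets, 604 were called between the tissues against 374 genes, 4153 between spheroids and ESMG against 2065, and 4129 between spheroids and squamous tissue against 2035, since more features were tested. Without single arrays the count between the tissues was 276 to 569, the highest without the ESMG array of pig 40. Causes of the other changes were not tested. With 3 arrays per group, and with MPEG1, PTPRC, EVI2B and other list genes near background in spheroids, folds are imprecise.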
